A study of Mus musculus with 7 samples.

Results

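The AP-1 transcription factors and immediate early genes Fos, Fosb, Fosl1, Fosl2, Jun, Junb, Jund, Egr1, Atf3 and Ier2 were examined in mouse embryonic fibroblasts given R406 or its solvent DMSO during early chemical reprogramming. R406 is an inhibitor of the kinase Syk. These 10 genes were taken by symbol from 53715 genes in the deposited RNA-seq table, and all 10 were found there by Ensembl identifier. Levels are in TPM, a unit that adjusts for transcript length and library total. To be tested, a gene had to average 1 TPM or more over the 4 RNA libraries. 8 of the 10 passed, among 13929 genes, and Egr1 and Fosb were too low to be tested.

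The fibroblasts were taken at embryonic day 13.5 from the OG2 mouse strain, CBA-Tg(Pou5f1-EGFP)2Mnn/J, which carries a green fluorescent reporter driven by Pou5f1 sequences. For RNA-seq, cells at passage 3 were moved to Stage 1 medium, and both groups received every agent in it: the growth factor bFGF at 20 ng/ml, forskolin at 50 µM, CHIR99021 at 20 µM, 616452 at 10 µM, VPA at 0.5 mM, Parnate and EPZ004777 at 5 µM each, AM580 at 0.5 µM and vitamin C at 250 µM, in DMEM with KSR and FBS at 10% each, NEAA, P/S and β-ME. 2 libraries came from cells given DMSO and 2 from cells given R406. The medium was renewed every 4 days over 12 days, and the sources used here give neither the dose of R406 nor the day of RNA harvest. For CUT&Tag, a tagmentation assay of the DNA bound by a protein, fibroblasts of the same strain carried lentiviral rtTA and TetO-Flag-Nfatc1, were kept in Stage 1 medium with doxycycline, and were given DMSO or R406 for 4 days before an anti-FLAG antibody was used. There was 1 library per condition, so these data report an overexpressed, tagged factor without replicates, and a blank library without primary antibody was not analysed here.

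AP-1 is a family of dimers that bind DNA through basic leucine zippers. Jun proteins pair with each other or with Fos proteins, whereas Fos proteins need a partner, and in fibroblasts the family is known for its response to serum, growth factors and stress. Immediate early genes are switched on within minutes of such a signal without new protein synthesis, through kinases of the ERK, JNK and p38 cascades and factors such as Srf, the Elk proteins and Creb1. Nfatc1, the tagged factor, is moved to the nucleus by the calcium-dependent phosphatase calcineurin, and NFAT proteins are known to bind DNA together with AP-1 at composite sites.

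The DNA just upstream of these genes is shown first because tagged Nfatc1 peaks covered part of it. A RefSeq promoter window (GRCm38.p6, the assembly that mm10 names, 250 bases before to 50 bases after the start site) was matched for 7 of the 10 genes: Fos, Fosb, Fosl2, Jun, Junb, Jund and Atf3. Peaks of the DMSO library overlapped 3 of the 7 windows (Jun, Junb and Atf3), and peaks of the R406 library overlapped 6 (all but Jund). Over all 32851 windows in the same table, 14.96% held a DMSO peak and 22.29% an R406 peak. Those windows were taken whether or not the gene had RNA here, and the share among expressed genes was not counted. For the wider windows counted below, the shares were higher among genes of at least 1 TPM. The windows of 5 genes that held both a peak and a motif match are printed 5′ to 3′ on the strand of the gene. Capitals mark the matches, and the start site is base 251 of each window.
Jun, chr4:95052173-95052472, minus strand: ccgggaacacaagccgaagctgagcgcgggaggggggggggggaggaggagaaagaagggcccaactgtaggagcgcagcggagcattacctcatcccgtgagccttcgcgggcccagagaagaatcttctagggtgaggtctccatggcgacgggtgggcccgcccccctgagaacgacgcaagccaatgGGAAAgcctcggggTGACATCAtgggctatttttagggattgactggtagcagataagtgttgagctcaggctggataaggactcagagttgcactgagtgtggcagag
Fos, chr12:85473640-85473939, plus strand: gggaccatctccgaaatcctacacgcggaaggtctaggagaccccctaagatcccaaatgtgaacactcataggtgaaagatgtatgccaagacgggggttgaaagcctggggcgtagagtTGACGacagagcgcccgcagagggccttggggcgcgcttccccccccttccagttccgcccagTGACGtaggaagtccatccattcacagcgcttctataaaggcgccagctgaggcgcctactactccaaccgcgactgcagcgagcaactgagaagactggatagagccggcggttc
Junb, chr8:84978699-84978998, minus strand: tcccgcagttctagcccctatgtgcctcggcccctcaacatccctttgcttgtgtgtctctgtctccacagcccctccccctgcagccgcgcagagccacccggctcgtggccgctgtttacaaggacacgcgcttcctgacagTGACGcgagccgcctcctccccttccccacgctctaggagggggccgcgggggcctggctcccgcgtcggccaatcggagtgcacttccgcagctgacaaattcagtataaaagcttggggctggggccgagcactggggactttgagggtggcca
Fosb, chr7:19309996-19310295, minus strand: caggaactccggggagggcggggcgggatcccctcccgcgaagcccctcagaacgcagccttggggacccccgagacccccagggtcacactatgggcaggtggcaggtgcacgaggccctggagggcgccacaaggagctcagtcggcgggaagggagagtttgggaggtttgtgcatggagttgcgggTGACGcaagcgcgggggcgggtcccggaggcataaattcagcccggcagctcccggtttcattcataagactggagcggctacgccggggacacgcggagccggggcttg
Atf3, chr1:191183284-191183583, minus strand: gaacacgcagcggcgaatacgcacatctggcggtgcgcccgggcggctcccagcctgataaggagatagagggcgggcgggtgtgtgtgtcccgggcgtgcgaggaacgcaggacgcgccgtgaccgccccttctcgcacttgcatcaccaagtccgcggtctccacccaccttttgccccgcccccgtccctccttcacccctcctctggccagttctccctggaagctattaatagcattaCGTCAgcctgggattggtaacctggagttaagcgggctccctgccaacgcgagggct

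Both strands of the 7 windows were searched for the NFAT core GGAAA, the AP-1 site TGANTCA, the Jun-type site TGACATCA, the cyclic AMP half-site TGACG and the CArG box bound by Srf. In the Jun window, GGAAA began 59 bases and TGACATCA 45 bases before the start site. Jun was the only gene of the 7 with either of these motifs in this window. TGACG began 129 and 66 bases before the start site in Fos, 106 bases before it in Junb and 60 bases before it in Fosb. The Atf3 window held TGACG on the other strand, printed as CGTCA, 7 bases before the start site. No window held TGANTCA or a CArG box, which says only that these letters are not in these stretches. Over all 32851 windows, GGAAA was in 61.34%, TGANTCA in 7.808%, TGACATCA in 3.619%, TGACG in 20.81% and the CArG box in 1.629%. TGACG and TGACATCA begin alike, and no matches in these windows overlapped.

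The 4 RNA libraries were alike in breadth, with 13537 to 14045 genes at or above 1 TPM, and log2(TPM + 1) correlated at 0.991 and 0.990 within groups and at 0.972 to 0.980 between them, across genes. Depth is unknown because TPM keeps no read counts. Fibroblast markers were present in every library, with all 12 tested and a summed level of 4061 to 6223 TPM. They moved in both directions: 1 was called higher, Col3a1 (215 and 252 TPM with DMSO against 786 and 616 TPM with R406), and 0 lower. Both R406 libraries were above both DMSO libraries for 3 of the 12 and below them for 4, near the shares of 25.9% and 30.2% over all tested genes. For this and the other marker lists, the shares called over all tested genes were 4.26% higher and 4.05% lower. Macrophage genes fell: 9 of 9 tested passed the test, and the sum of the 12 listed was 275 and 234 TPM with DMSO against 7.47 and 7.53 TPM with R406, with Ptprc and Itgam listed at 0 in both R406 libraries. Epithelial genes rose (7 of 8; 159 and 154 against 834 and 476 TPM), as did extraembryonic endoderm genes (6 of 8; 47.1 and 61.3 against 346 and 197 TPM). Smooth muscle genes were called lower in 2 of 6, with sums of 1324 and 972 against 499 and 369 TPM. Among endothelial genes 1 of 4 tested was called higher, Esam, at 1.22 and 1.18 against 11.2 and 7.02 TPM. The endothelial sums, Esam included, were 11.9 in both DMSO libraries against 23.0 and 16.2 TPM. For Esam and Cdh5 both R406 libraries were above both DMSO libraries. They were below for Kdr (8.27 and 8.66 against 6.91 and 6.49 TPM) and for Pecam1, which was not tested. The share of TPM on mitochondrial genes was 10.5% and 14.2% with DMSO and 6.72% and 10.3% with R406, and the ribosomal protein share was 14.0% and 15.4% against 19.3% and 22.3%. These values move with the treatment, and both shares were also lower in replicate 1 than in replicate 2 of each group. The mitochondrial shares of DMSO replicate 1 (10.5%) and R406 replicate 2 (10.3%) were close. The part of these values in the results below was not tested. In bulk RNA, fewer cells of a type and less RNA per cell cannot be told apart.

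Of the 8 tested AP-1 and immediate early genes, Fosl1 fell and none rose at an adjusted p of 0.05 (limma). Over all 13929 genes, 4.05% were called lower, 4.26% higher and 8.31% in either direction, so 1 call among 8 does not set these genes apart. At an unadjusted p of 0.05, 2 of the 8 passed (Fosl1 and Atf3, both lower with R406), against 26.8% of all genes. The 2 groups of libraries did not overlap for 3 tested genes that were lower with R406 (Fosl1, Fosl2 and Atf3) and 1 that was higher (Ier2). Over all tested genes these shares were 30.2% and 25.9%, or 56.1% in either direction. The median log2 change was −0.34 over the 8 and −0.015 over all tested genes. The plot of levels by library shows that the spread of levels between genes was wider than any change with R406, the 0 of Junb aside.

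**Figure D1:**
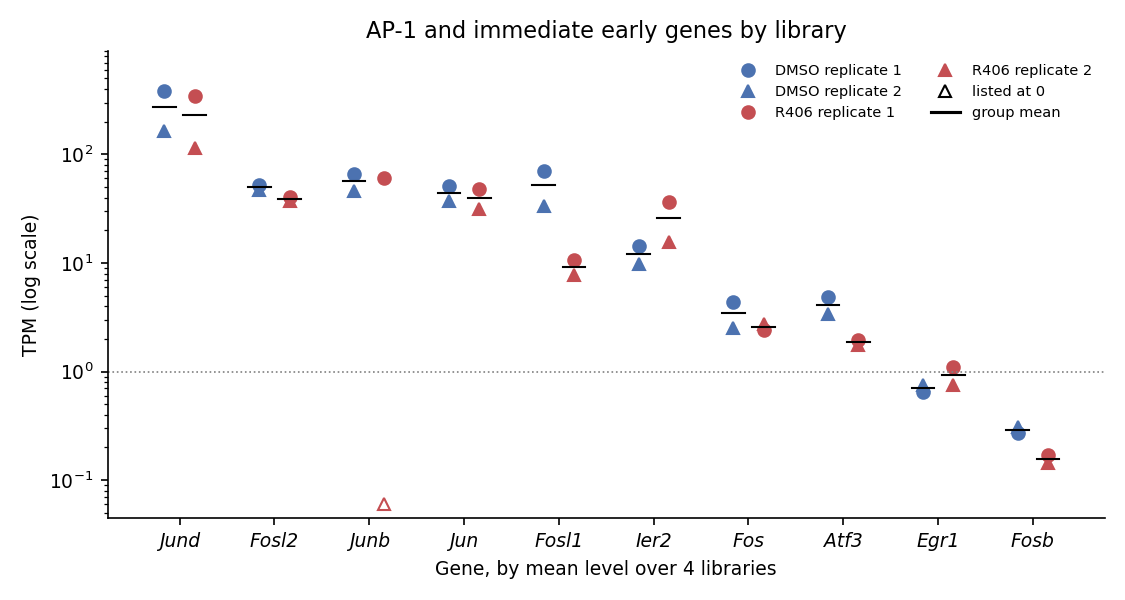
Level in TPM (log scale) of each of the 10 genes, ordered by mean level, in the 2 DMSO (blue) and 2 R406 (red) libraries, with circles for replicate 1, triangles for replicate 2 and bars for group means; the dotted line is 1 TPM. Fosl1 is the gene in which the R406 libraries (10.7 and 7.75 TPM) sit farthest below the DMSO libraries (70.3 and 33.8 TPM), and the open triangle marks Junb, listed at 0 in R406 replicate 2 and drawn at the foot of the axis with no R406 mean.

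Among the Fos family, which supplies the partners that need Jun, Fosl1 encodes Fra-1, a late and long-lived member that lacks the strong activation domain of Fos. Its level was 70.3 and 33.8 TPM with DMSO and 10.7 and 7.75 TPM with R406. Both R406 libraries were below both DMSO libraries, although the DMSO pair was itself wide. The group means were 52.0 ± 25.8 TPM with DMSO and 9.22 ± 2.08 TPM with R406 (SD, n = 2 each), a 5.64-fold lower mean. On the log2(TPM + 1) scale the change was −2.30 (SE 0.40, 95% interval −3.32 to −1.28), with an adjusted p of 0.0373 by limma. It was −1.78 without DMSO replicate 1, where the adjusted p by limma was 0.0653, and the adjusted p was 0.0999 when no filter on low levels was set.

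Fosl1 lies at chr19:5447698-5455938 (mm10, 8241 bases), and 2776 bases, 33.7% of its span, are shared with Ccdc85b, at chr19:5453163-5457563 in the RefSeq gene table. The RNA kit does not mark strand, so reads of the shared stretch cannot be assigned to one of the genes by strand. Ccdc85b was at 694 and 321 TPM with DMSO and at 328 and 147 TPM with R406, and its groups overlapped. Its log2 change was −1.10 (95% interval −2.49 to 0.29), with an adjusted p of 0.275 by limma. Levels of Fosl1 are therefore uncertain to the extent that reads of Ccdc85b were counted to it, which was not tested.

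Fosl2 encodes Fra-2, the other Fos protein without the long activation domain. Its level was 52.6 and 47.2 TPM with DMSO and 40.7 and 37.3 TPM with R406, so both R406 libraries were lower. The means were 49.9 ± 3.81 and 39.0 ± 2.38 TPM (SD, n = 2 each). The log2 change of −0.35 (SE 0.18, 95% interval −0.82 to 0.12) did not pass, with an adjusted p of 0.303 by limma.

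Fos, the founding member and a classic serum-response gene, was low in every library. It was at 4.41 and 2.52 TPM with DMSO and at 2.43 and 2.72 TPM with R406, and the groups overlapped. The log2 change was −0.29 (95% interval −0.98 to 0.40; adjusted p 0.557, limma). Fosb, a close relative of Fos, was at 0.270 and 0.311 TPM with DMSO and at 0.169 and 0.144 TPM with R406. Both R406 values of Fosb were lower, at a level too low for a test.

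The Fos family summed to 128 and 83.8 TPM in the DMSO libraries and to 54.0 and 47.9 TPM in the R406 libraries. Fosl1 made up 55.1% and 40.3% of that sum with DMSO and 19.8% and 16.2% with R406. Fosl2 made up 41.2% and 56.3% with DMSO and 75.4% and 77.8% with R406. Fosl1 and Fosl2 thus shared the family's RNA with DMSO, with their order differing between the replicates, and Fosl2 was the most abundant Fos RNA in both R406 libraries. Fos contributed 3.01% to 5.67% of the sum in the 4 libraries. These shares follow from the levels above and were not tested separately.

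**Figure D2:**
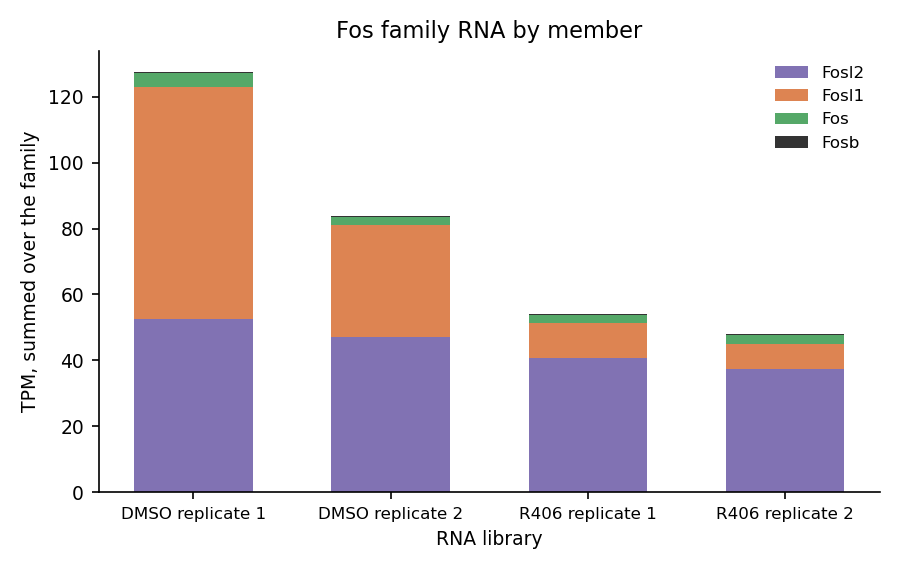
Summed TPM of the 4 Fos family genes in each RNA library, as stacked bars from 0 with 1 colour per gene. Most of the drop from 128 and 83.8 TPM with DMSO to 54.0 and 47.9 TPM with R406 lies in the Fosl1 segment, while the Fosl2 segment ranges from 37.3 to 52.6 TPM.

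The Jun family supplies a partner to every Fos protein. Jund, its member with steady expression in many resting cells, was the most abundant of the 10 genes in each library. It was at 387 and 165 TPM with DMSO and at 346 and 116 TPM with R406. The groups overlapped, and the larger separation was between replicate numbers: replicate 1 was 2.35 times replicate 2 with DMSO and 2.99 times with R406. Only 72 of the 13929 tested genes were at least this far apart in both groups in the same direction. The change with R406 was −0.33 on the log2 scale with a wide 95% interval of −2.03 to 1.37 (adjusted p 0.798, limma).

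Jun, the best known partner of Fos, was at 51.0 and 37.3 TPM with DMSO and at 48.5 and 31.4 TPM with R406. The groups overlapped, with replicate 1 higher in both. The log2 change was −0.16 (95% interval −0.92 to 0.61; adjusted p 0.791, limma), which leaves changes up to the ends of that interval undetected. Junos, a non-coding gene beside Jun, stayed between 0.728 and 1.05 TPM and was not tested.

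Junb, which can counter Jun at shared targets, needs caution. It was at 66.5 and 46.1 TPM with DMSO and at 61.2 TPM in R406 replicate 1, and it is listed at 0 in R406 replicate 2. The first 3 values lie together, so the result rests on that 0. With it, the log2 change was −2.84 (SE 1.91, 95% interval −7.77 to 2.099; adjusted p 0.413, limma). With the 0 set to missing it was 0.14 (adjusted p 0.829, limma), without R406 replicate 2 it was again 0.14 (adjusted p 0.838, limma), and without R406 replicate 1 it was −5.82 (adjusted p 0.000391, limma), a value set by the 0 alone. Only 2 genes were at or above 10 TPM in 3 libraries and listed at 0 in the remaining library: Junb and the pseudogene Gm10095, both in R406 replicate 2. Gm10095, on chromosome 12, was at 57.1, 39.8 and 60.3 TPM in the other libraries, named here after its values were seen. Prdx2, a neighbour of Junb, was at 427, 294, 401 and 265 TPM in the same order of libraries. An exact 0 at this level can be a failed estimate, and no direction is drawn for Junb.

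The Jun family summed to 504 and 248 TPM with DMSO and to 456 and 147 TPM with R406, the last without any Junb. Leaving Junb out of all libraries gave 438 and 202 against 395 and 147 TPM. In both sums the groups overlapped, and Jund made up 66.4% to 78.6% of the family with Junb included. The Jun RNAs exceeded the Fos RNAs in each library, by summed TPM.

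Atf3 is a stress-induced factor that pairs with Jun and is known mainly as a repressor. It was at 4.82 and 3.42 TPM with DMSO and at 1.95 and 1.76 TPM with R406, so both R406 libraries were lower. Means were 4.12 ± 0.984 and 1.86 ± 0.136 TPM (SD, n = 2 each), a 2.22-fold lower mean. The log2 change was −0.83 (SE 0.22, 95% interval −1.40 to −0.26), with an unadjusted p of 0.0137 and an adjusted p of 0.0910 by limma, which misses the threshold.

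Ier2, a short nuclear protein of the serum response, had the opposite sign. It was at 14.5 and 9.83 TPM with DMSO and at 36.5 and 15.6 TPM with R406, with both R406 libraries higher and the R406 pair wide. Means were 12.1 ± 3.27 and 26.0 ± 14.8 TPM (SD, n = 2 each). The log2 change of 0.95 (SE 0.44, 95% interval −0.20 to 2.09) did not pass (adjusted p 0.257, limma). It was 1.53 without R406 replicate 2, the lower of the pair (adjusted p 0.0253, limma), and 0.36 without R406 replicate 1 (adjusted p 0.570, limma). Each of these fits leaves 1 R406 library, which is assumed to vary like the DMSO pair, and the size of the change follows from the library removed.

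Egr1, a zinc finger factor switched on through Srf and the Elk proteins, was near or under 1 TPM throughout. It was at 0.646 and 0.757 TPM with DMSO and at 1.10 and 0.747 TPM with R406. The groups overlapped, and Egr1 was not tested.

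**Figure D3:**
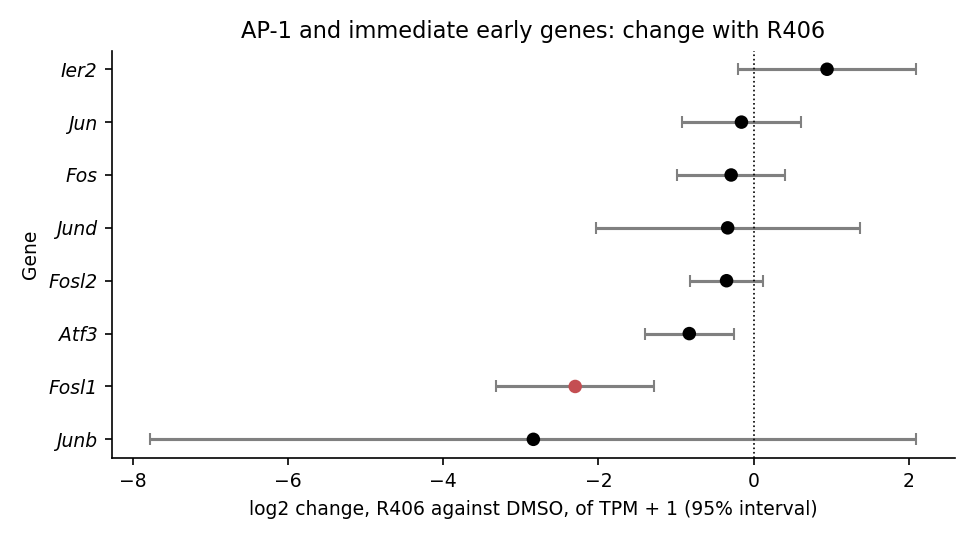
Log2 change of TPM + 1 with R406 against DMSO for the 8 tested genes, with 95% intervals from limma; the dotted line is no change and red marks the gene that passed. The interval of Fosl1 (−3.32 to −1.28) lies below 0 and that of Junb (−7.77 to 2.099) is the widest, because 1 of its 4 values is 0.

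By level, Jund stood alone at the top. Fosl2, Junb and Jun followed with ranges that overlapped one another (37.3 to 52.6, 0 to 66.5 and 31.4 to 51.0 TPM). Fosl1 was near them with DMSO (70.3 and 33.8 TPM) and below Ier2 with R406. Fos and Atf3 were both between 1.76 and 4.82 TPM, and Egr1 and Fosb were lowest. The RNAs whose pattern over the 4 libraries lay closest to that of Fosl1, by root mean square distance of centred log2(TPM + 1) among genes averaging 5 TPM or more, were Ly6h (distance 0.108), Ube2ql1 (0.136) and Ugt1a7c (0.178). Ly6h went from 21.2 and 10.3 TPM with DMSO to 3.45 and 1.94 TPM with R406. Such likeness over 4 libraries describes the values and nothing more.

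The wider AP-1 circuit was read from 6 lists of other genes. Of their 93 tested members 1 was called higher and 18 lower by limma, beside 4.26% and 4.05% of all tested genes. The lists were chosen with earlier results of these data known. Counts above the shares of all genes, here and for each list below, are therefore no test of a list. Among 12 tested related bZIP factors, 1 fell, 0 rose and the median log2 change was −0.02. It was Maf, at 11.4 and 11.1 TPM with DMSO and at 4.70 and 5.38 TPM with R406 (log2 change −1.02, adjusted p 0.0410, limma). The call was lost when any 1 of the 4 libraries was left out, with adjusted p-values of 0.0521 to 0.204 (limma). The small Maf protein Maff did not pass, at 38.5 and 27.4 against 17.4 and 15.1 TPM (adjusted p 0.0781, limma). Batf3, a Jun partner, was at 0.801 and 1.01 against 1.80 and 2.18 TPM (adjusted p 0.114, limma).

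Upstream, 1 of 18 tested kinases and factors fell, 0 rose, and the median log2 change was −0.35. Elk3, an ETS partner of Srf, was at 68.3 and 61.6 TPM with DMSO and at 33.7 and 31.1 TPM with R406 (log2 change −0.98, adjusted p 0.0424, limma). This call too was lost when any 1 library was left out, with adjusted p-values of 0.0764 to 0.258 (limma). Rps6ka3, which encodes the ERK-activated kinase Rsk2, just missed the threshold at 9.10 and 7.26 against 3.27 and 3.70 TPM (adjusted p 0.0504, limma). Srf itself, named for its role and not by the rule, was at 36.3 and 22.3 against 30.01 and 17.8 TPM, with overlapping groups (adjusted p 0.667, limma).

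Among 21 tested immediate early genes outside the 10, 2 fell and 1 rose, and the median log2 change was −0.0016. Ccn1, which encodes a matricellular protein, was at 287 and 188 TPM with DMSO and at 64.1 and 48.7 TPM with R406 (log2 change −2.04, adjusted p 0.0262, limma). Its relative Ccn2 was at 15.8 and 11.1 against 3.15 and 2.82 TPM (log2 change −1.84, adjusted p 0.0215, limma). Gadd45b, a stress-response gene, rose from 16.1 and 15.8 to 36.1 and 30.6 TPM (log2 change 1.02, adjusted p 0.0425, limma). Without DMSO replicate 1 neither Ccn1 (adjusted p 0.0726), Ccn2 (0.0661) nor Gadd45b (0.204) passed (limma), and Gadd45b was also lost without DMSO replicate 2 (0.190) or R406 replicate 1 (0.112). Arc and Klf4 had values in the direction of Gadd45b and missed the threshold: Klf4, a reprogramming factor, was at 24.7 and 19.0 against 61.4 and 38.3 TPM (adjusted p 0.0885, limma).

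A list drawn up as ERK feedback genes, whose dependence on ERK was not tested here, gave 4 falls and no rise among 15 tested. The median log2 change was −0.79, and 13 of the 15 had both R406 libraries below both DMSO libraries. Over all tested genes 4.05% were called lower and 30.2% had both R406 libraries below both DMSO libraries. Etv5, an ETS factor, was at 30.04 and 26.4 TPM with DMSO and at 3.97 and 5.07 TPM with R406 (log2 change −2.41, adjusted p 0.0137, limma). Dusp6, a phosphatase of ERK, was at 8.97 and 7.33 against 2.49 and 2.22 TPM (log2 change −1.44, adjusted p 0.0257, limma). Dusp4, a nuclear phosphatase of the same family, was at 14.2 and 8.67 against 2.38 and 1.69 TPM (log2 change −2.01, adjusted p 0.0277, limma). Spred1, an inhibitor of Ras signalling, was the remaining call, at 19.9 and 23.6 against 8.99 and 9.53 TPM (log2 change −1.15, adjusted p 0.0352, limma). Leaving out DMSO replicate 1 left 1 of the 4 calls, Etv5, and the other three had adjusted p-values of 0.0628 to 0.121 by limma. Spred1 was also lost without DMSO replicate 2 (0.166) or R406 replicate 1 (0.0679).

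Of 19 tested genes known as AP-1 targets, 10 fell and 0 rose, with a median log2 change of −1.47, beside 4.05% called lower and 4.26% called higher over all tested genes. Areg, which encodes the EGF-like ligand amphiregulin, was at 51.9 and 33.5 TPM with DMSO and at 0.928 and 0.912 TPM with R406. The collagenase gene Mmp13 was at 11.7 and 13.1 against 2.04 and 1.78 TPM (log2 change −2.21, adjusted p 0.0137, limma). Mmp10, Ccnd1, Timp1, Spp1, Plau and the placental hormone genes Prl2c2 and Prl2c3 were also called. Prl2c2 and Prl2c3 are near-identical genes whose separate levels are uncertain, so their calls may not be independent. Without DMSO replicate 1, Ccnd1 (adjusted p 0.0557), Timp1 (0.0766) and Plau (0.0891) no longer passed (limma), and Plau was also lost without DMSO replicate 2 (0.0527). In the other direction, both R406 libraries were above both DMSO libraries for the protease gene Mmp3 (20.4 and 17.9 against 31.0 and 27.2 TPM, adjusted p 0.137, limma) and the cytokine gene Lif (14.6 and 12.1 against 23.2 and 18.0 TPM, adjusted p 0.178, limma). Both were named after their values were seen, and neither passed. Several of these genes have many regulators and are also made by macrophages or smooth muscle. In the same libraries 9 of 9 tested macrophage markers and 2 of 6 smooth muscle markers were called lower, while the smooth muscle gene Myh11 was at 4.85 and 6.29 against 9.76 and 8.37 TPM, and the part of those cells was not tested.

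The heat shock genes, a list for general stress, gave no call among 8 tested by limma, with 1 below an unadjusted p of 0.05 (Hsp90aa1, lower) and a median log2 change of 0.07. The replicate-number separation seen in Jund was also visible in some of these genes. Hspa1a was at 18.4 and 7.61 TPM with DMSO and at 24.3 and 10.99 TPM with R406. The separation was absent in Hsp90aa1 (6.59 and 6.70 against 3.99 and 3.85 TPM) and small in Hsph1 (136 and 124 against 131 and 117 TPM).

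**Figure D4:**
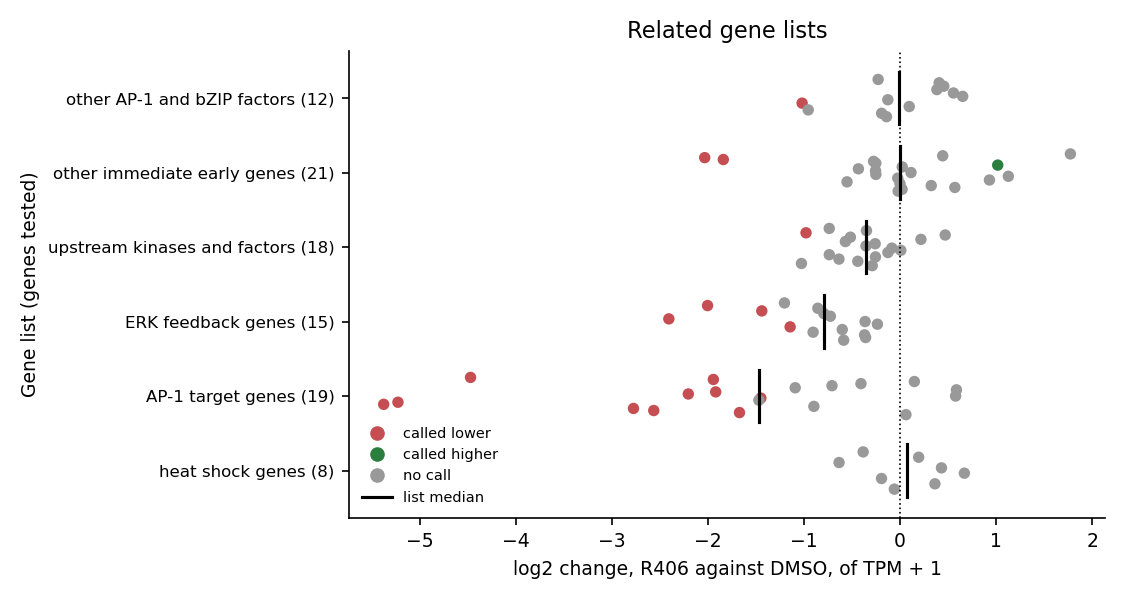
Log2 change of TPM + 1 with R406 against DMSO for each tested gene of 6 lists around AP-1, with red for genes called lower and green for genes called higher by limma, and a black bar at each list median. The medians run from 0.07 for heat shock genes to −1.47 for AP-1 target genes, and all 15 tested ERK feedback genes lie below 0.

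Peaks of tagged Nfatc1 were then counted over each gene span and 10 kb on either side. The fold enrichment of a peak is the authors' value from their peak caller, and it is ranked only within its own list. Where folds of both libraries are printed side by side, no change with R406 is read from them. All 10 genes had at least 1 peak in the DMSO library and at least 1 in the R406 library. Among protein-coding genes of at least 1 TPM the shares with a peak were 61.8% and 80.0%, and among all protein-coding genes 43.8% and 59.2%. The 10 windows held 30 DMSO peaks and 40 R406 peaks, in lists of 21246 and 36885 peaks. The R406 list is longer over the whole genome, so more peaks in a window with R406 is no sign of a change at that gene. With 1 library per condition there is no replicate check.

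A peak was counted as shared when it overlapped a peak of the other library by at least 1 base. Of the DMSO peaks near the 10 genes, 24 of 30 (80%) were shared, against 73.0% of the whole list. Of the R406 peaks, 21 of 40 (52.5%) were shared, against 41.4%. The median fold was 9.11 for the DMSO peaks and 10.1 for the R406 peaks near these genes, beside list medians of 8.74 and 8.86. Windows with at least 4 peaks were found for 3 genes with DMSO and 6 with R406, against 7.62% and 16.4% of protein-coding genes of at least 1 TPM.

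Fosl2, at chr5:32136472-32157840 (mm10), had 6 peaks in each library. Its highest DMSO peak, at chr5:32135231-32136165, had a fold of 26.96, above 95.5% of the DMSO list, with its summit 809 bases upstream of the gene. The highest R406 peak, at chr5:32134794-32136566, had a fold of 56.3, above 98.8% of the R406 list, with its summit 554 bases upstream. The strongest peak of each library near Fosl2 thus lay just before its start, and the R406 peak reached over the promoter window.

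Fosl1, the gene that fell, had the lowest highest-peak fold of the 10 genes in each library. Other genes of the 10 also had single peaks below that fold in each library, such as Jund at 4.37 with DMSO and 5.06 with R406. The 2 DMSO peaks of Fosl1, both inside the gene span, had folds of 5.83 and 5.10, above 11.6% and 4.07% of the DMSO list. Its 2 R406 peaks had folds of 5.06 and 7.59, above 6.37% and 34.8% of the R406 list, at the far end of the span and 927 bases beyond it. The DMSO peak with a fold of 5.10 and both R406 peaks lie within the span of Ccdc85b, the one with a fold of 7.59 outside Fosl1. Which of the genes these peaks belong to was not tested. None of the peaks counted for Fosl1 was shared, and Fosl1 was the only one of the 10 without a shared peak.

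At Fos, the DMSO library had 1 peak, 8710 bases downstream, with a fold of 13.1. The R406 library had the same region at a fold of 30.4 and 2 more peaks, with summits 1325 and 103 bases upstream of the start site and folds of 21.5 and 21.4. The nearer of these, at chr12:85473491-85474002, covers the whole printed Fos window and has its summit at base 148 of it. Fosb had 2 DMSO peaks and 5 R406 peaks with highest folds of 9.47 and 12.7, and the R406 peak over its promoter window had its summit at base 62.

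Jun had a peak centred on its start in both libraries. The DMSO peak at chr4:95051795-95053612 had a fold of 16.8 and its summit 5 bases before the start site, and the R406 peak at chr4:95050310-95053987 had a fold of 30.4 and its summit 1 base before it. These summits are bases 246 and 250 of the printed Jun window, downstream of its GGAAA and TGACATCA. Junb had 4 peaks in each library with highest folds of 9.47 and 20.2, and 1 peak of each covered its promoter window. Jund had 3 DMSO and 5 R406 peaks, and the highest of each (folds of 21.1 and 41.1) had its summit inside the gene.

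Egr1 had 7 DMSO peaks and 5 R406 peaks with highest folds of 21.1 and 36.7, although its RNA was near or under 1 TPM. Ier2 had 1 DMSO peak with a fold of 10.2 and 5 R406 peaks, of which the highest (fold of 21.5) lay inside the gene and had no DMSO counterpart. Atf3 had 2 peaks in each library with highest folds of 11.7 and 10.1, and the peak over its promoter window was the highest in both, with summits at bases 60 and 211 of the printed window. Peaks were thus called at genes with high and with low RNA. RNA and peaks came from different cells, with the CUT&Tag cells carrying added Nfatc1, so the values are set side by side only.

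**Figure D5:**
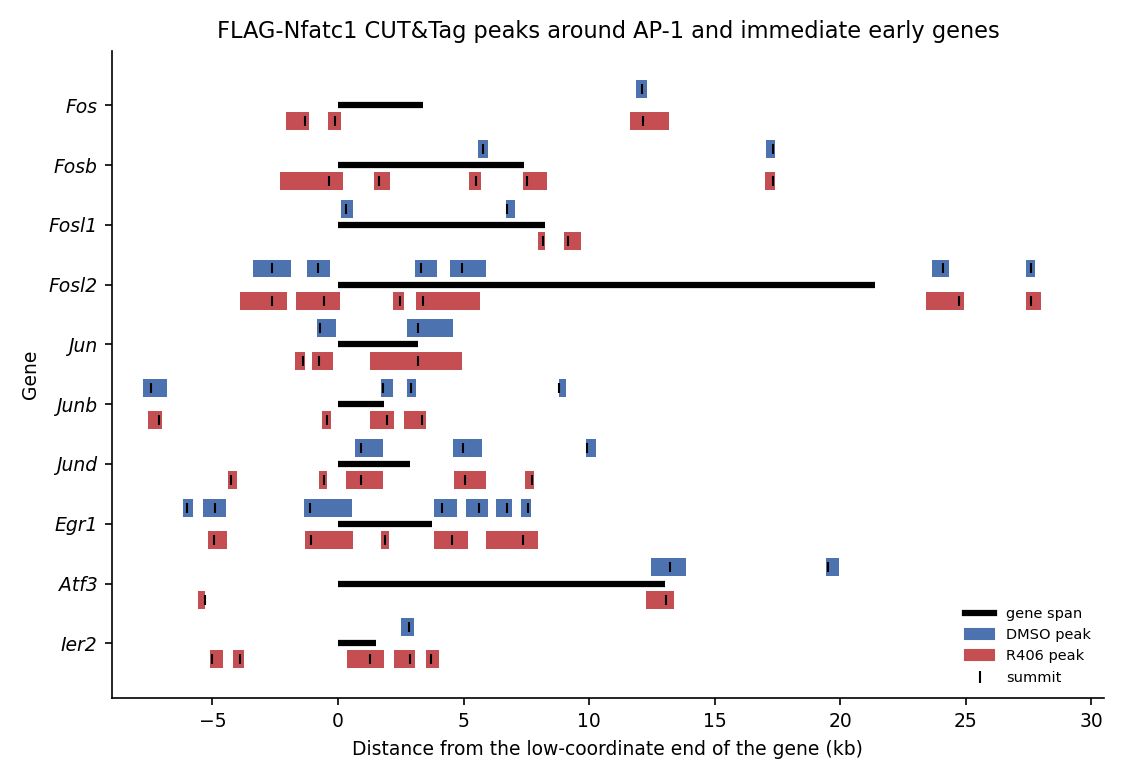
Position of the tagged Nfatc1 peaks of the DMSO (blue, upper row) and R406 (red, lower row) libraries around each of the 10 genes, in kb from the low-coordinate end of the gene span (black), with ticks at the summits. All 10 genes have peaks in both libraries, Fosl2 has 6 in each, and at Fosl1 the blue and red peaks do not overlap.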

How the data were processed

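RNA-seq of 4 libraries and CUT&Tag of 2 were used. Per the submitters' processing notes, the tools were HISAT2 2.1.0 and StringTie 2.0 for RNA and Bowtie2 2.2.5 and MACS2 2.1.2 (with ChIPseeker, HOMER and deepTools) for CUT&Tag, on mm10. The authors deposited TPM per gene, which sums to a fixed total per library, so a rise of some RNAs lowers the rest. Per the labels' protocols the RNA kit was NEBNext Ultra, which does not mark strand. In the peak lists, called per library, the authors deposited for each peak its score, its fold enrichment (a ratio) and the −log10 of its p-value and of its q-value. The control and threshold of peak calling are not stated in the sources used here.

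Genes averaging 1 TPM or more over 4 libraries were tested with limma 3.58.1 (R 4.3.3) on log2(TPM + 1), which understates changes of low genes, with a variance trend, two-sided, with Benjamini-Hochberg adjustment over 13929 genes and a threshold of 0.05. The fit has 2 residual degrees of freedom. The labels do not say whether the 2 libraries of a group stem from separate cultures. The p-values therefore rest on a spread that may be technical. The 10 genes and the lists were chosen with earlier results of these data known. Named genes were all 10, every call and up to 6 with the smallest p in each of 6 pathway lists, and up to 3 in each of 6 marker lists; only some are printed, and 1 called target gene is not reported here. Gene spans and promoter windows came from RefSeq tables of GRCm38.p6. Alternatives were other pseudocounts, filters, scalings, a replicate block, leaving out each library, and other windows, overlaps and folds for peaks.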

Additional observations from a re-analysis of the deposited data

How the results depend on the processing

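Depth could not be weighed because TPM keeps no counts, and 2 libraries per group limit every test. A fit that leaves out a library takes the spread from the other group alone. Of the 10 genes, the Fosl1 fall kept its direction in all 13 alternatives (log2 change −2.82 to −1.78) and its call in 11. Against 1 call among them in the report, 0 remained with no filter on low levels. Without mitochondrial, ribosomal protein and Gm genes 2 passed (Atf3 was added, adjusted p 0.0477, limma). With that removal 15.5% of all tested genes were called, against 8.31% in the report. The share was 12.4% with quantile normalization and 12.1% with median centring. A fit that leaves out a library keeps 1 in its group, and the changes this gave for Fosl1, Junb and Ier2 are given above. Without a filter, 0 of 27879 genes passed by limma although 5394 had an unadjusted p under 0.05, so every list gave 0.

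Calls over the 6 pathway lists were 19, and 9 to 21 when each library was left out. For bZIP factors the call of 1 became 2 with quantile normalization, median centring or removal of mitochondrial, ribosomal protein and Gm genes, and 0 on leaving out any library. For upstream genes 1 became 2 under the same scalings and that removal and with a pseudocount of 0.1, and 0 on leaving out any library. The 3 immediate early calls became 5 with median centring or that removal and ranged from 1 to 6 on leaving out a library. The 4 ERK feedback calls ranged from 1 to 4 and the 10 target calls from 7 to 11.

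Same-numbered libraries deviated together (correlation 0.556 over 13929 genes), but there are 2 pairs and no label says what a number shares. With the replicate block, 4 of the 8 tested genes passed (1 higher, 3 lower), namely Fosl1 (adjusted p 0.00408), Fosl2 (0.0455), Atf3 (0.0278) and Ier2 (0.0248) by limma. Over all genes the block gave 2128 higher and 2535 lower, against 593 and 564. These calls were 33.5% of the 13929 tested genes, against 8.31% in the report. Calls with the block were 48 among the 93 tested genes of the pathway lists. They were 3 of 12 bZIP, 9 of 21 immediate early, 6 of 18 upstream and 11 of 15 ERK feedback genes. The rest were 16 of 19 target genes (14 lower, 2 higher) and 3 of 8 heat shock genes.

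Leaving out each library in turn gave log2 changes of −0.60 to 0.020 for Fos, −0.46 to 0.15 for Jun, −5.82 to 0.14 for Junb, −1.12 to 0.45 for Jund, −0.16 to 0.88 for Hspb1 and −0.16 to 1.02 for Hspa1a, so the sign of each turned. Fos turned without DMSO replicate 1, Jun and Jund without DMSO replicate 1 (0.07 and 0.28) or R406 replicate 2 (0.15 and 0.45), and Junb without R406 replicate 2 or with its 0 set to missing (0.14 in both). Hspb1 turned without R406 replicate 1 (−0.16), and Hspa1a without DMSO replicate 2 (−0.16) or R406 replicate 1 (−0.11). The cause was not tested, except that Junb rests on its single 0.

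The 30 DMSO peaks became 18 within 2 kb, 48 within 50 kb and 19 at a fold of at least 8, and the 40 R406 peaks became 72 within 50 kb and 26 at that fold. Asking for 50% overlap of both peaks left 13 shared peaks in each list, and within 2 kb 13 of the R406 peaks were shared. Not all of the genes kept a peak: Fos had no DMSO peak within 2 kb, and Fosl1 had none in either library at a fold of at least 8.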
